A study of Mus musculus with 16 samples.

Results

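The 9 Hoxc genes of the mouse, Hoxc4, Hoxc5, Hoxc6, Hoxc8, Hoxc9, Hoxc10, Hoxc11, Hoxc12 and Hoxc13, were followed through 8 deposited H3K27me3 peak lists. They were chosen by name, as 9 of 21631 protein-coding genes (chromosome Y left out), and all 9 matched the RefSeq annotation of the files' build (mm10, GRCm38.p6). They lie side by side on chr15:102921131-103036856, a span of 115726 bp that begins with Hoxc13 and ends with Hoxc4. A member counted as marked where a peak overlapped its gene body, extended by 2 kb on each side, by at least 1 base. The covered share is the percentage of such a window, or of the whole span, that lies under peaks.

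H3K27me3 was mapped in CCN6KOT cells, mouse breast tumour cells labelled as spindle metaplastic and grown from a CCN6 knockout model, so all groups lack CCN6. In 4 libraries the cells carried a lentivirus with dnTCF4, a dominant negative form of the TCF4 factor through which beta-catenin acts on genes, and in 4 control libraries a control lentivirus (PPGS in the titles). Both groups were selected with puromycin, all come from 1 line, and the sources used here do not name the promoter that drives dnTCF4. In addition there are 8 IgG libraries, not analysed here, and peak lists measure no transcript, so the cell type could not be checked against marker expression.

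Hox genes encode homeodomain transcription factors that give cells their position along the body axis. They sit in 4 clusters, and the order of genes along each cluster follows the order in which they are used from head to tail. Polycomb Repressive Complex 2, whose catalytic subunit is EZH2, writes H3K27me3 over these clusters in cells where they are silent, and the clusters are textbook examples of broad Polycomb domains. The mark at such loci usually reaches across genes and the DNA between them.

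The peak lists differed widely in length, and this bears on every value below. The dnTCF4 libraries 1 to 4 held 21492, 191, 4885 and 1838 peaks, and the control libraries 1 to 4 held 426, 738, 54070 and 22745. Covered length ran from 0.129 Mb in dnTCF4 2 to 16.6 Mb in dnTCF4 1, and from 0.242 Mb in control 1 to 52.7 Mb in control 3. Chromosome 15 makes up 3.95% of the annotated length and held between 8.96% (dnTCF4 2) and 22.0% (dnTCF4 3) of covered length in dnTCF4 libraries, and between 10.8% (control 3) and 22.9% (control 1) in control libraries. Sequencing depth is unknown, so DNA without a peak may still carry the mark. No 2 lists were identical. Separate cultures are not stated for the numbered libraries, so the p-values rest on a spread among libraries that may be only technical.

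The Hoxc span holds 2 microRNA genes, Mir196a-2 between Hoxc10 and Hoxc9 and Mir615 inside Hoxc5. Their mature sequences, from the RefSeq tables of GRCm38.p6, are shown because both genes sit among peaks that rarely reach them. Within 2 kb of each, peaks lay in 7 of the 8 libraries, while control 3 alone had a peak on the Mir196a-2 hairpin and no library one on that of Mir615. Capitals mark the seed, bases 2 to 8, through which a microRNA pairs with its targets. The 4 seeds differ from each other. In mice miR-196a directs cleavage of the Hoxb8 transcript, and its seed is shared with mmu-miR-196b-5p.
mmu-miR-196a-5p (chr15:102973365-102973386, plus strand): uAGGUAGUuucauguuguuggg
mmu-miR-196a-2-3p (chr15:102973401-102973422, plus strand): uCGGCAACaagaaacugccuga
mmu-miR-615-5p (chr15:103014926-103014947, plus strand): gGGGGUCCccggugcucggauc
mmu-miR-615-3p (chr15:103014969-103014990, plus strand): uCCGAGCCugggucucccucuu

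Peaks covered more than 30% of the Hoxc span in 4 libraries and some of it in all 8. The covered share was 62.0%, 0.491%, 31.1% and 9.52% in dnTCF4 libraries 1 to 4, and 4.11%, 5.35%, 68.9% and 48.7% in control libraries 1 to 4. The groups overlapped fully, and the high and low libraries of each group were, in the main, its long and short lists. Every list had a peak in the span, with 26, 1, 31 and 20 in dnTCF4 libraries and 9, 10, 24 and 32 in control libraries. Each library pools many cells, so the mark on fewer cells and less of the mark per cell cannot be told apart.

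Among equally long stretches of the genome, the Hoxc span ranked near the top of each list. When the chromosomes were cut into 22717 tiles of 115726 bp that did not touch the span, 1, 24, 3 and 4 tiles were covered more than it in dnTCF4 libraries 1 to 4. In control libraries 1 to 4, 6, 5, 2 and 2 tiles were covered more. The median tile was covered to 0% in every library, so a single peak lifts a stretch above most tiles. In dnTCF4 2 the rank rests on 1 peak, with 0.491% of the span covered against 30.3% in the most covered tile. This ranking was made after the values were seen and carries no test.

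Marked members numbered 9, 0, 9 and 8 in dnTCF4 libraries 1 to 4, where 13.7%, 0.254%, 5.13% and 2.41% of all protein-coding genes were marked by the same rule. They numbered 6, 5, 9 and 9 in control libraries 1 to 4, where 0.675%, 1.06%, 20.1% and 12.5% of all genes were marked. Hoxc4, Hoxc5, Hoxc9, Hoxc10 and Hoxc13 were marked in 7 libraries, Hoxc8 in 6, Hoxc6 and Hoxc11 in 5 and Hoxc12 in 4. All 9 were thus marked in at least 4 libraries, as were 5.18% of all genes. On the gene body alone, Hoxc8 and Hoxc9 had a peak in 4 libraries and Hoxc11 and Hoxc12 in 0. The other members had the same counts on the body as in the window. Marking in at least 7 libraries was reached by 5 members and 0.393% of all genes, and marking in all 8 by 0 members and 0.0925% of all genes. A window covered to at least 50% was found for 6, 0, 0 and 0 members in dnTCF4 libraries 1 to 4, beside 0.157%, 0.00462%, 0.0139% and 0.00925% of all genes. It was found for 0, 0, 8 and 3 members in control libraries 1 to 4, beside 0.00462%, 0.00462%, 0.661% and 0.106% of all genes. A window of a long gene is more easily touched by a peak than that of a short one, and windows of neighbours overlap here (Hoxc5 and Hoxc4 share 3333 bp, Hoxc6 and Hoxc5 1875 bp, Hoxc8 and Hoxc6 50 bp), so the members are not independent.

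**Figure D1:**
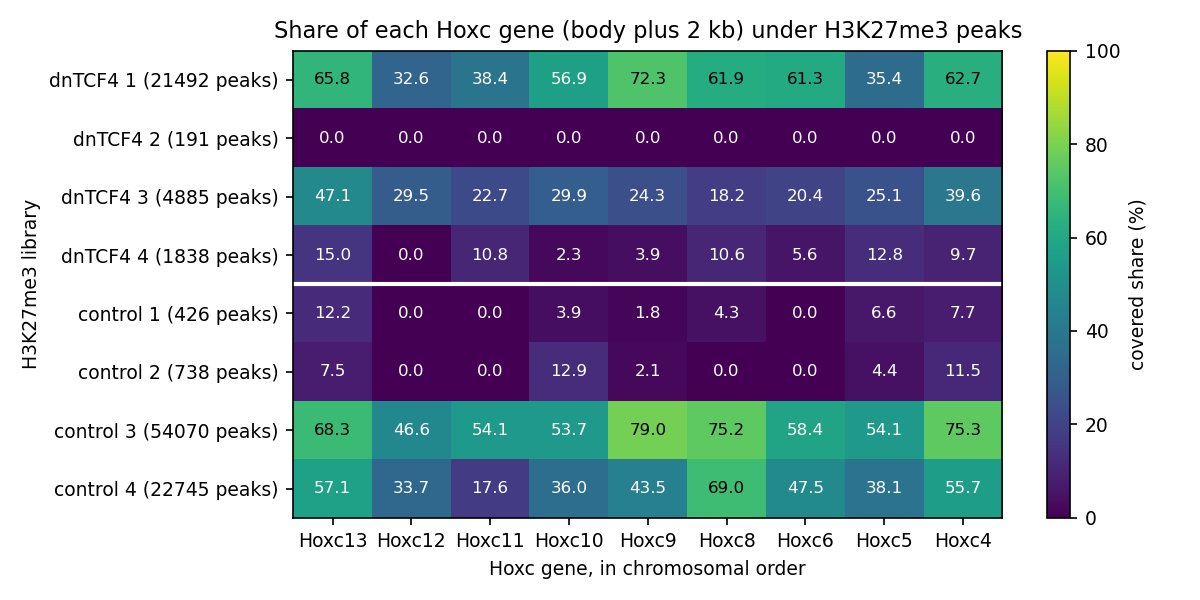
Covered share (%) of each Hoxc gene with 2 kb on each side, genes in chromosomal order from left to right, libraries in rows with their number of peaks, dnTCF4 above the white line and control below it. The rows of dnTCF4 1, control 3 and control 4 are brightest, and the row of dnTCF4 2 is 0 throughout.

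The members at the outer ends of the cluster, Hoxc13 and Hoxc4, had the highest mean covered shares. Hoxc13, which acts in hair, nail and tail development, was covered to 65.8%, 0%, 47.1% and 15.0% in dnTCF4 libraries, and to 12.2%, 7.49%, 68.3% and 57.1% in control libraries. Hoxc4, the member used furthest towards the head, was covered to 62.7%, 0%, 39.6% and 9.67% in dnTCF4 libraries, and to 7.72%, 11.5%, 75.3% and 55.7% in control libraries. For both genes the order of libraries was close to that of the whole span, and the groups overlapped.

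Hoxc8 and Hoxc9, which pattern the trunk, were covered to over 75% in the longest list, control 3, as was Hoxc4. Hoxc9 was the highest member there. In the short lists dnTCF4 2, dnTCF4 4, control 1 and control 2, Hoxc8 and Hoxc9 were covered to 10.6% or less. Hoxc9 was covered to 72.3%, 0%, 24.3% and 3.90% in dnTCF4 libraries, and to 1.80%, 2.15%, 79.0% and 43.5% in control libraries. Hoxc8 was covered to 61.9%, 0%, 18.2% and 10.6% in dnTCF4 libraries, and to 4.32%, 0%, 75.2% and 69.0% in control libraries. At Hoxc8 the highest value of a dnTCF4 library lay below those of control 3 and control 4.

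The middle of the order was held by Hoxc10, a posterior gene with a role in the hindlimb, by Hoxc6, expressed in the thorax of the embryo, and by Hoxc5. Hoxc10 was covered to 56.9%, 0%, 29.9% and 2.296% in dnTCF4 libraries, and to 3.87%, 12.9%, 53.7% and 36.0% in control libraries. Hoxc6 was covered to 61.3%, 0%, 20.4% and 5.57% in dnTCF4 libraries, and to 0%, 0%, 58.4% and 47.5% in control libraries. Hoxc5 was covered to 35.4%, 0%, 25.1% and 12.8% in dnTCF4 libraries, and to 6.63%, 4.42%, 54.1% and 38.1% in control libraries. In dnTCF4 4 only Hoxc13 was covered more than Hoxc5, whereas in dnTCF4 1 only Hoxc12 was covered less.

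The posterior genes Hoxc11 and Hoxc12 had the lowest mean covered shares over the 8 libraries, and peaks reached only the DNA beside them. Hoxc11 was covered to 38.4%, 0%, 22.7% and 10.8% in dnTCF4 libraries, and to 0%, 0%, 54.1% and 17.6% in control libraries. Hoxc12 was covered to 32.6%, 0%, 29.5% and 0% in dnTCF4 libraries, and to 0%, 0%, 46.6% and 33.7% in control libraries. In dnTCF4 3 Hoxc8 (18.2%) lay below both, so the order was not the same in every library. The gene bodies of Hoxc11 and Hoxc12 carried no peak in any of the 8 libraries, although the windows of 2 kb around them did.

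In order of mean covered share over the 8 libraries, the members ran Hoxc13 (34.1%), Hoxc4 (32.8%), Hoxc8 (29.9%), Hoxc9 (28.4%), Hoxc10 (24.4%), Hoxc6 (24.2%), Hoxc5 (22.1%), Hoxc11 (18.0%) and Hoxc12 (17.8%). In each of the 8 pairs of neighbours in this order, the mean difference within libraries was smaller than its SD, from 0.166 ± 8.57 percentage points for Hoxc11 over Hoxc12 to 4.12 ± 7.25 for Hoxc5 over Hoxc11. Sorting by the same values puts small gaps side by side, so this is no test of whether members differ. Hoxc13 exceeded Hoxc12 in 7 of 8 libraries, by 16.3 ± 10.2 percentage points (SD, n = 8), which describes the ends of this order and carries no test.

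The anterior and central members Hoxc4, Hoxc5, Hoxc6 and Hoxc8 were covered more than the posterior members Hoxc9 to Hoxc13, whose homeodomains belong to the Abd-B class, by 2.70 ± 5.82 percentage points on average, in 5 of 8 libraries (SD, n = 8, two-sided exact sign-flip permutation p = 0.219). Over gene bodies alone the difference was 9.91 percentage points (n = 8, exact sign-flip permutation p = 0.0156), where Hoxc11 and Hoxc12 stand at 0. It turned to -1.13 with 5 kb on each side and to -0.30 with lists of equal length (exact sign-flip permutation p = 0.359 and 0.625).

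**Figure D2:**
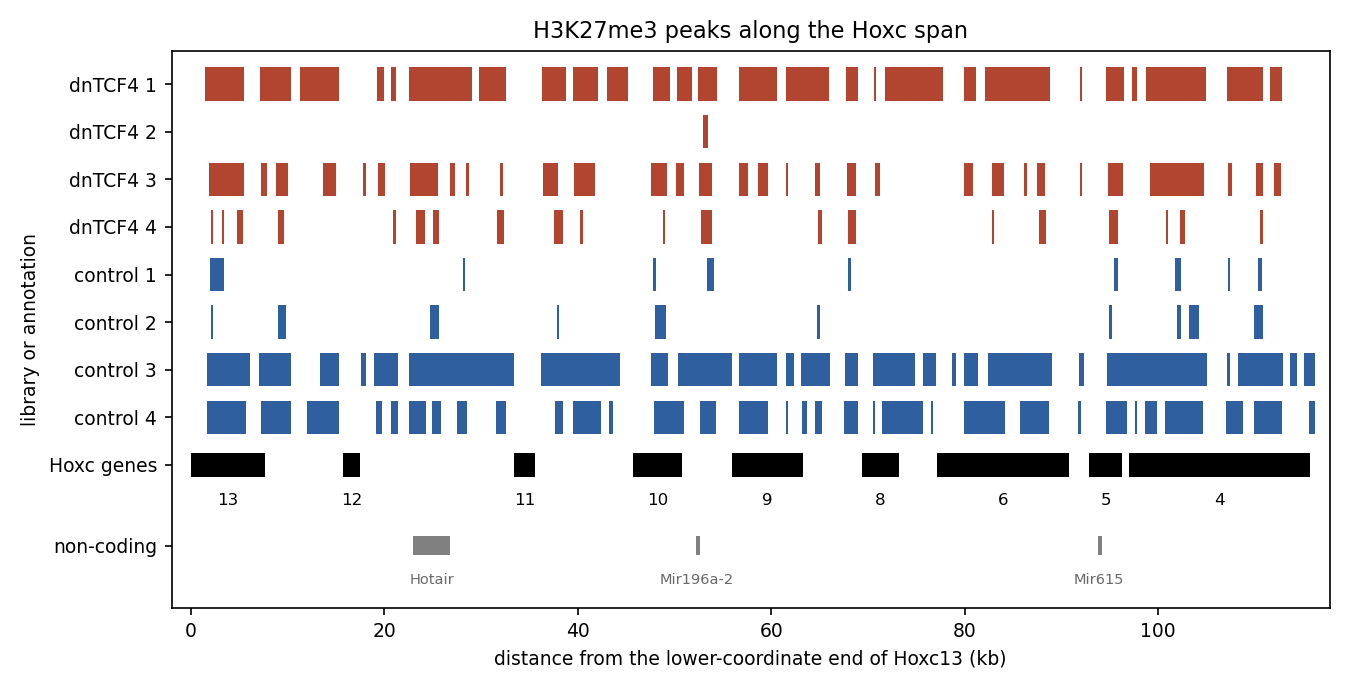
Each bar is 1 H3K27me3 peak of the span, drawn to scale by its distance (kb) from the lower-coordinate end of Hoxc13, with the dnTCF4 libraries above the control libraries, the 9 Hoxc genes in black with their paralogue numbers and 3 non-coding genes in grey. Gaps stand over Hoxc12 and Hoxc11 in all libraries, and the single peak of dnTCF4 2 lies next to Mir196a-2.

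Short lists marked parts of what long lists marked. Of the bases of the span covered in dnTCF4 4, 99.7% were covered in dnTCF4 1 and 100% in control 3. Of those covered in control 1, 100% were covered in dnTCF4 1 and 99.4% in control 3, and of those covered in control 2, 99.6% and 100%. The 2 short control lists shared less with each other, 26.3% of the covered bases of control 1 and 20.2% of those of control 2. The bases shared by dnTCF4 1 and control 3 made up 90.3% of the dnTCF4 1 bases and 81.3% of the control 3 bases.

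At least 1 library covered 76.4% of the span, at least 4 covered 28.7% and at least 6 covered 4.53%. Of 14 segments covered in at least 6 libraries, 8 lay on a member's body, on Hoxc13, Hoxc10, Hoxc5 and Hoxc4. Gene bodies make up 63736 of the 115726 bp of the span, a like proportion, so the count shows no preference for bodies. No base was covered in all 8. The 4 segments covered in 7 libraries lay in Hoxc13 (chr15:102923207-102923419), between Hoxc10 and Hoxc9 (chr15:102974508-102974603), and at 2 places in Hoxc4 (chr15:103023334-103023464 and chr15:103031696-103031893). Control 1 to 4, dnTCF4 1, dnTCF4 3 and dnTCF4 4 covered those in Hoxc13 and Hoxc4.

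The segment between Hoxc10 and Hoxc9 was the only one of these that dnTCF4 2 covered, and control 2 did not cover it. It begins 1074 bp above the end of the Mir196a-2 hairpin, whose mature strand is printed above, and ends 2429 bp below Hoxc9. In dnTCF4 libraries 1 to 4 the peak over it had fold enrichments of 3.85, 5.03, 4.37 and 5.14, and in control libraries 1, 3 and 4 fold enrichments of 4.57, 3.57 and 4.74. Fold enrichment is the authors' value per peak over the background that the peak caller estimated, and is compared here only within a list. By fold enrichment these peaks stood at percentiles 84.4, 70.7, 83.2 and 86.1 of their lists in dnTCF4 libraries 1 to 4, and at 62.7, 95.8 and 99.7 in control libraries 1, 3 and 4. The hairpin itself lay under a peak in control 3 only.

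Hotair, the long non-coding RNA gene between Hoxc12 and Hoxc11, was among the best covered parts of the span. Its body was covered to 100%, 0%, 67.1% and 38.8% in dnTCF4 libraries, and to 0%, 21.6%, 100% and 56.5% in control libraries. The groups overlapped, and dnTCF4 1 and control 3, which covered it whole, had no peak on the bodies of its neighbours Hoxc12 and Hoxc11. The widest peak of the span, 10872 bp in control 3 (chr15:102943636-102954507), covered Hotair and ended just before Hoxc11. Gm36878, inside Hoxc9, had a peak on its body in 4 libraries, Gm29905, next to Hoxc6, in 3, and Gm30528, which overlaps Hoxc4 and runs beyond the span, in 8.

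Over the span as a whole, neither gene bodies nor the DNA between them were covered more in most libraries. Bodies were covered to 56.9%, 0%, 33.7% and 6.91% in dnTCF4 libraries and to 5.54%, 6.41%, 61.9% and 50.3% in control libraries. The parts between were covered to 68.2%, 1.09%, 28.0% and 12.7% in dnTCF4 libraries and to 2.36%, 4.05%, 77.4% and 46.7% in control libraries. The difference was -2.36 ± 7.73 percentage points (SD, n = 8, bodies lower in 4 of 8 libraries, two-sided exact sign-flip permutation p = 0.422). This result does not show that bodies and the parts between were covered alike.

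Stretches with no peak in any library held more of the genes' lower-coordinate than upper-coordinate ends. There were 11 such stretches of at least 1 kb, 20929 bp together, and 9 touched a gene body. They held the lower-coordinate ends of Hoxc5, Hoxc8, Hoxc10, Hoxc11, Hoxc12 and Hoxc13, which are 6 of 9, and the upper ends of Hoxc6, Hoxc11 and Hoxc12. The promoter table places Hoxc4 on the plus strand, and as background the genes of a Hox cluster are transcribed in 1 direction, so the lower-coordinate end is the 5′ end. Within 1 kb to each side of the lower ends, the mean covered share was 27.4%, 0%, 8.38% and 1.86% in dnTCF4 libraries and 0%, 0%, 38.1% and 17.0% in control libraries. Around the upper ends it was 49.6%, 0%, 16.3% and 4.20% in dnTCF4 libraries and 2.73%, 0%, 57.2% and 41.4% in control libraries. In 6 of 8 libraries the upper ends were covered more and in none the lower ends. The number of ends with any peak within 1 kb did not separate them. It was 9, 0, 5 and 1 lower ends in dnTCF4 libraries and 0, 0, 7 and 7 in control libraries, beside 7, 0, 5 and 2 upper ends in dnTCF4 libraries and 1, 0, 8 and 7 in control libraries. This was looked at after the peaks were seen and carries no test.

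At Hoxc13 the lower end had a peak within 1 kb in 1 library and the upper end in 4, with highest covered shares of 1.65% and 81.0%. At Hoxc10 the numbers were 1 and 4 libraries, with 23.9% and 77.6%, and at Hoxc5 4 and 6. Another 4 members had the lower end marked in more libraries, Hoxc8 in 5 against 3, Hoxc9 in 4 against 3, Hoxc12 in 4 against 2 and Hoxc6 in 3 against 1. Hoxc4 had 4 at each end and Hoxc11 had 3. Over the 8 libraries the upper end had the higher mean at Hoxc5, Hoxc8, Hoxc9, Hoxc10 and Hoxc13, and the lower end at Hoxc4, Hoxc6, Hoxc11 and Hoxc12. At Hoxc6 the means were 17.4% for the lower and 0.437% for the upper end. Only the outermost annotated ends were used.

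The promoter table of RefSeq for GRCm38.p6 held 1 of the 9 members, Hoxc4, from 250 bases before to 50 after a start inside its body. It is printed because no library had a peak on it, although peaks covered up to 75.3% of the gene's window. The promoter of Gm29905 is printed beside it because it holds the lower-coordinate end of Hoxc6 and does lie under peaks. Capitals mark CG.
Hoxc4 (chr15:103034145-103034444, plus strand): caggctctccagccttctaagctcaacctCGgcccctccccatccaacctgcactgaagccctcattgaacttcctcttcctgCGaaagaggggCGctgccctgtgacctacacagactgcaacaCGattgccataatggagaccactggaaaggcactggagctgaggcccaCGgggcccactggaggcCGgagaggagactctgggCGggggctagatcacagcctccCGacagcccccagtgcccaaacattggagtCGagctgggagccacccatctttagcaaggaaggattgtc
Gm29905 (chr15:102998118-102998417, minus strand): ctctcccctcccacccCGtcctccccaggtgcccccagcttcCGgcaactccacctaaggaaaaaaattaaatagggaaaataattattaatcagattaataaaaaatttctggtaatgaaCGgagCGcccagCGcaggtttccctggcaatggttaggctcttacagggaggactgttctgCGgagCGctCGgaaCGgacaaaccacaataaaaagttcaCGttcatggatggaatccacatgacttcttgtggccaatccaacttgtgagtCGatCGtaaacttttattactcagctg

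The Hoxc4 window holds 9 CG and has a GC content of 60.3%, and that of Gm29905 holds 12 CG with 47.0%. The median of 32585 RefSeq promoter windows was 7 CG and 53.0%. The Gm29905 window was covered to 100% in dnTCF4 1 and to 25.0% in control 3, and had no peak in the other libraries. Peaks lay on 0.862%, 0.0123%, 0.175% and 0.0307% of all promoter windows in dnTCF4 libraries and on 0.0307%, 0.0307%, 2.19% and 0.776% in control libraries. Neither printed window holds TATAAA or CTTTGAT, a core of the site that TCF factors bind, on either strand. These are found in 13.7% and 3.76% of all windows, and no match says only that these letters are not in this window.

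Promoter windows richest in CG carried fewer peaks in these lists. Among the 10816 windows with 16 or more CG, 0.0832% lay under a peak in dnTCF4 1, 0.166% in control 3 and 0.0277% in control 4. Among the 12290 windows with up to 4 CG, these shares were 1.25%, 3.81% and 1.47%. Among the 9479 windows with 5 to 15 CG, which include both printed ones, they were 1.24%, 2.38% and 0.728%, so in dnTCF4 1 this class was marked about as often as the poorest. Polycomb is known for binding CG-rich promoters in other mouse cells. The part of base composition in the gaps of the Hoxc span was not tested, since sequences of the other 8 members' promoters were not used here.

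The mark did not stop at the edges of the gene cluster. In the 20 kb before Hoxc13 the covered share was 86.4%, 8.07%, 62.8% and 31.7% in dnTCF4 libraries and 7.37%, 14.1%, 91.6% and 71.0% in control libraries, above the span itself in all 8. The span lay lower by 17.9 ± 9.98 percentage points on average (SD, n = 8, two-sided exact sign-flip permutation p = 0.00781, the smallest that 256 assignments give, for a flank chosen after the data were seen). The call was lost with lists of equal length, at -1.23 percentage points (exact sign-flip permutation p = 0.469), and at −log10 q of at least 3 and in the 5 libraries of at least 1000 peaks (exact sign-flip permutation p = 0.0625 for each). In the 20 kb after Hoxc4 the covered share was 79.2%, 0%, 33.2% and 7.46% in dnTCF4 libraries and 0%, 7.24%, 87.4% and 59.0% in control libraries. The span differed from it by -5.42 ± 8.78 percentage points (SD, n = 8, exact sign-flip permutation p = 0.180).

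Further out, the 200 kb before Hoxc13 were covered to 40.4%, 0.807%, 20.3% and 6.95% in dnTCF4 libraries and to 3.22%, 4.55%, 66.2% and 48.0% in control libraries. The span lay above this in 7 libraries, with 62.0% against 40.4% in dnTCF4 1, and below it in dnTCF4 2. In all libraries but dnTCF4 1 and dnTCF4 3 the values were within 3 percentage points of each other. The 200 kb after Hoxc4 were covered to 28.1%, 0.171%, 13.7% and 2.85% in dnTCF4 libraries and to 0.747%, 1.94%, 33.6% and 27.1% in control libraries. The nearest protein-coding genes carried no peak in any library. They are Calcoco1, 199 kb before Hoxc13, and Smug1, a DNA repair enzyme 116 kb after Hoxc4, and the third gene within 200 kb, Cbx5, the gene of heterochromatin protein HP1 alpha, had none either.

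**Figure D3:**
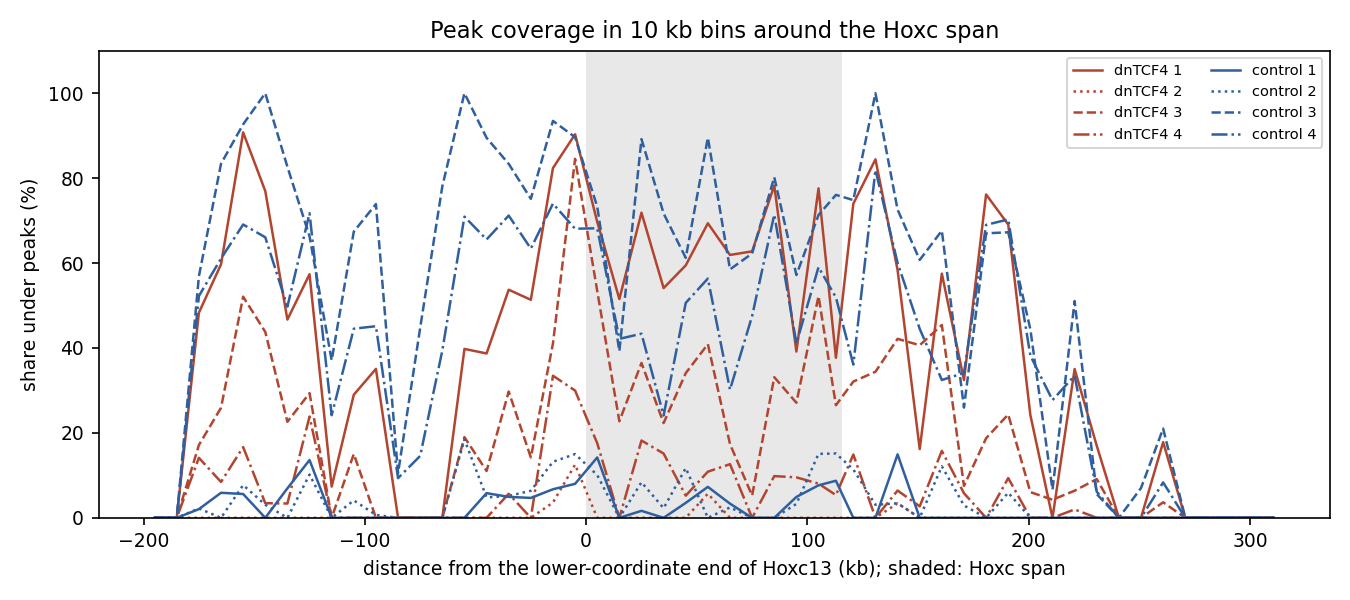
Covered share (%) in bins of 10 kb from 200 kb before Hoxc13 to 200 kb after Hoxc4, by distance (kb) from the lower-coordinate end of Hoxc13, with the Hoxc span shaded, dnTCF4 libraries in red and control libraries in blue. Between 90 and 80 kb before Hoxc13 coverage is 0 in all libraries but control 3 (10.5%) and control 4 (9.35%), and in the long lists it is high on both sides of the shaded span.

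When all peaks were used, peaks of the Hoxc span were wider than the other peaks of the same list and slightly more enriched. Their median fold enrichment was 3.85, 5.03, 4.22 and 4.76 in dnTCF4 libraries, against 3.50, 4.71, 4.05 and 4.47 for the rest of each list. In control libraries it was 4.57, 5.06, 3.57 and 3.55 for the span, against 4.48, 4.59, 3.01 and 3.39 for the rest. The difference was 0.300 ± 0.162, positive in 8 of 8 libraries (SD, n = 8, two-sided exact sign-flip permutation p = 0.00781, and from 0.00781 to 0.859 over 13 alternatives).

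The median width of the span's peaks was 2243, 568, 850 and 574 bp in dnTCF4 libraries, against 485, 315, 398.5 and 306.5 bp for the rest. In control libraries it was 492, 586, 2238 and 1348.5 bp, against 296, 320, 595 and 470 bp. On the log10 scale the difference was 0.380 ± 0.167, positive in 8 of 8 libraries (SD, n = 8, two-sided exact sign-flip permutation p = 0.00781). In dnTCF4 2 the span's median fold enrichment and median width each rest on 1 peak. Width is part of the covered share, which was already known to be high here, so this p is no independent support. Set against the other peaks of chromosome 15 only, the differences were 0.292 for fold enrichment and 0.330 for log10 width, positive at the same p. The enrichment difference did not hold among the most significant peaks. Of the 7 libraries with a Hoxc peak at −log10 q of at least 3, the span was higher in 4 and lower in 3 (mean difference 0.41, exact sign-flip permutation p = 0.859). Control 1 set that mean with 1 Hoxc peak at 5.59 against a median of 2.15 for its other 37, and without it the mean was -0.0954 (exact sign-flip permutation p = 0.312). For log10 width the difference at this threshold was 0.313 (exact sign-flip permutation p = 0.141). The Hoxc median was narrower in dnTCF4 4 (307 against 341 bp) and control 1 (334 against 1084 bp). It was wider in dnTCF4 1, dnTCF4 3, control 2, control 3 and control 4. The width call was also lost with lists of equal length (exact sign-flip permutation p = 0.25). In the 5 libraries of at least 1000 peaks it was lost too (exact sign-flip permutation p = 0.0625). The most significant Hoxc peak ranked 325, 121, 203 and 130 in dnTCF4 lists 1 to 4 and 37, 110, 195 and 164 in control lists 1 to 4, so it led none of them.

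**Figure D4:**
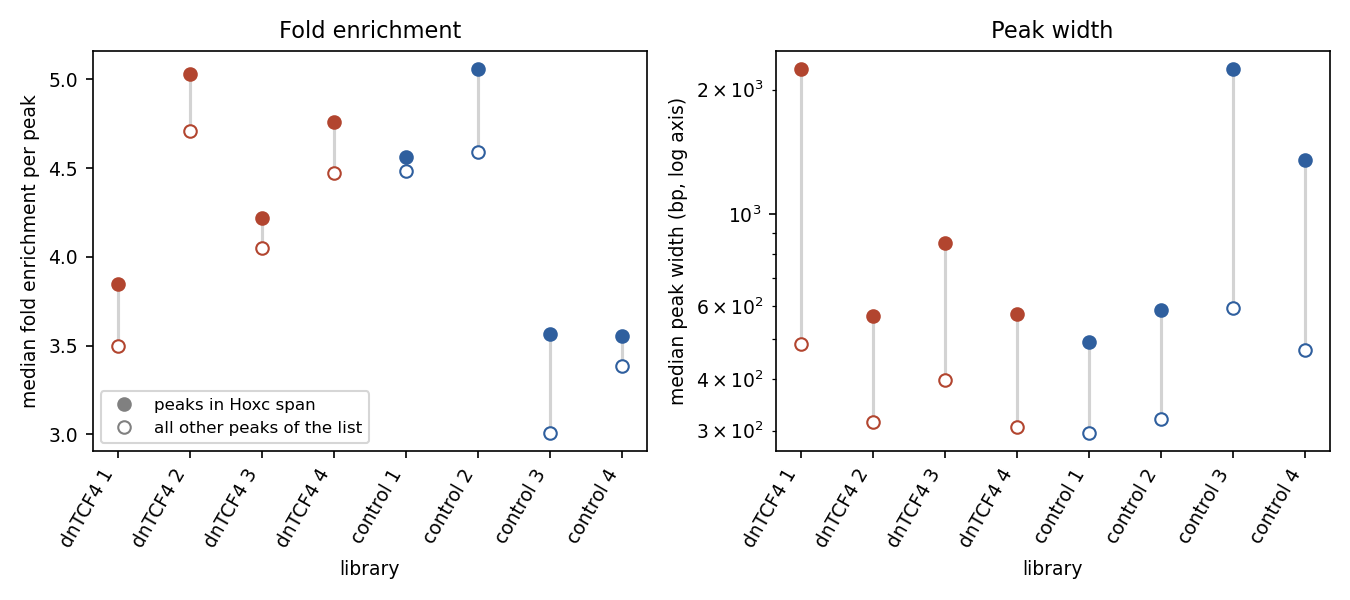
Median fold enrichment (left) and median width in bp on a log axis (right) of the peaks in the Hoxc span (filled) and of all other peaks of the same list (open), per library, dnTCF4 in red and control in blue. The filled point lies above the open one in all 8 libraries in both panels.

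The Hoxc span was covered more than the Hoxb and Hoxd spans in all 8 libraries. The Hoxb span (Hoxb1 to Hoxb9, chromosome 11) was covered to 9.69%, 0%, 0% and 0% in dnTCF4 libraries and to 0%, 0%, 25.1% and 7.39% in control libraries. The Hoxd span (Hoxd1 to Hoxd13, chromosome 2) was covered to 6.66%, 0%, 0.610% and 0.208% in dnTCF4 libraries and to 0%, 0%, 9.50% and 2.39% in control libraries.

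The mean difference was 23.5 ± 20.9 percentage points over Hoxb and 26.4 ± 24.6 over Hoxd (SD, n = 8, two-sided exact sign-flip permutation, adjusted p = 0.00781 for each over 2 comparisons). That Hoxc exceeds the others in these lists was known when the test was chosen, so this p restates the 8 of 8 and is no independent support. Hoxb was at 0% in 5 libraries and Hoxd in 3, where any Hoxc peak makes the difference positive. With lists cut to the length of the shortest, the difference was 1.04 percentage points for each, at an adjusted p of 0.0625, since only 5 libraries then kept a Hoxc peak. When the Hoxb span was taken to Hoxb13, all peaks covered 16.1% of it in dnTCF4 1 and 34.9% in control 3. The mean difference over Hoxb was then 20.6 percentage points.

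By members, all 9 Hoxc genes were marked in at least 4 libraries, against 0 of 10 Hoxb genes with Hoxb13, and 3 of 9 Hoxd genes, namely Hoxd3, Hoxd10 and Hoxd11, which were marked in 2 libraries of each group. The background for this rule is the 5.18% given above. The highest covered share of a member in any library was 79.0% for Hoxc, 36.1% for Hoxb and 33.1% for Hoxd. Of 9 genes of Hox cofactors (Pbx, Meis and Pknox families, whose proteins bind DNA together with Hox proteins), 1, Pknox2, had a peak in any library, and it was marked in control 3 only.

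**Figure D5:**
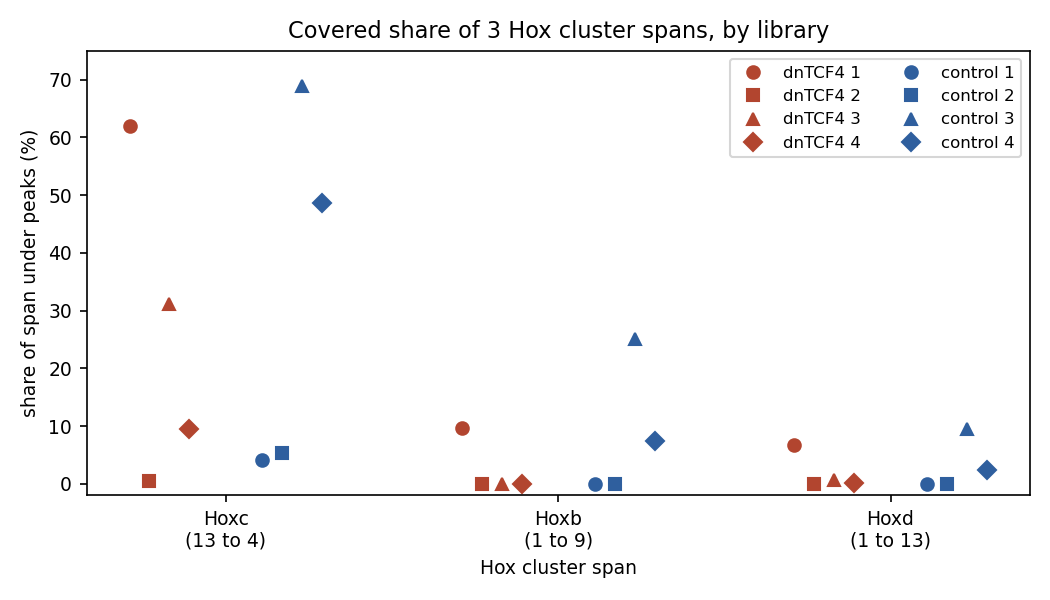
Share (%) of the Hoxc, Hoxb and Hoxd spans under H3K27me3 peaks, with Hoxc at the left, dnTCF4 libraries in red left of control libraries in blue, and a symbol for each library number. The Hoxc points reach 68.9%, and no point of Hoxb (Hoxb1 to Hoxb9) or Hoxd lies above 25.1%.

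The rest of chromosome 15 was covered far less than the Hoxc span. Its covered share was 2.19%, 0.0106%, 0.590% and 0.149% in dnTCF4 libraries and 0.0487%, 0.0794%, 5.39% and 2.43% in control libraries. The whole annotated length was covered to 0.632%, 0.00491%, 0.112% and 0.0328% in dnTCF4 libraries and to 0.00920%, 0.0152%, 2.00% and 0.619% in control libraries, so chromosome 15 outside the span stood above the genome in all 8. The span exceeded the rest of its chromosome by 27.4 ± 26.2 percentage points, in 8 of 8 libraries (SD, n = 8, two-sided exact sign-flip permutation p = 0.00781). With lists of equal length it was 1.02 percentage points and the call was lost (exact sign-flip permutation p = 0.0625). As a ratio this was 28.3, 46.3, 52.7 and 63.8 in dnTCF4 libraries and 84.4, 67.4, 12.8 and 20.04 in control libraries, and the ratio was lowest in the longest list. The rest of the chromosome was covered so little that in dnTCF4 2 a single Hoxc peak made the difference positive. The p for the difference therefore restates the 8 of 8 and is no independent support. The part of the chromosome's own level in the Hoxc values was not tested.

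The genes outside the span and its 200 kb flanks whose covered shares lay closest to the mean of the 9 members over the 8 libraries were 4930407I10Rik (chromosome 15), Krt24 (chromosome 11), Krt73 (chromosome 15), and Prdm12 and Prokr2 (chromosome 2). Krt24 and Krt73 encode keratins, Prdm12 a factor of sensory neurons and Prokr2 a receptor for prokineticins. Their mean absolute differences were 3.06, 3.67, 3.71, 4.00 and 4.08 percentage points. The members' mean was 54.1%, 0%, 28.5% and 7.86% in dnTCF4 libraries and 4.06%, 4.27%, 62.8% and 44.2% in control libraries. The 8 points share their libraries, and so their list lengths, with every other gene.

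Between dnTCF4 and control libraries the covered share of the Hoxc span differed by less than the spread within either group. It averaged 25.8 ± 27.3% in dnTCF4 libraries and 31.8 ± 32.3% in control libraries (SD, n = 4 each). The difference was -5.99 percentage points (two-sided exact permutation p = 0.771, where the smallest p that 70 assignments give is 0.0286). Without dnTCF4 2 the difference turned to 2.44 and without control 3 to 6.39 percentage points. Marked members averaged 6.50 ± 4.36 in dnTCF4 and 7.25 ± 2.06 in control libraries (SD, n = 4 each). The difference of -0.75 had an exact permutation p of 0.886, and without dnTCF4 2 it was 1.42.

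Single members gave the same picture. By the exact permutation test over all 21631 genes with Benjamini-Hochberg adjustment, 0 of 9 members passed (0.0% of all genes did), and 0 had an unadjusted p under 0.05, where 1 gene of all did, lower in dnTCF4 (0.00462%). Fisher's exact test of peak presence likewise called 0 members and 0.0% of all genes, adjusted or not. With a smallest unadjusted p of 0.0286, this exact permutation test could pass a member only if most genes reached that p. The mean covered share was lower in dnTCF4 than in control libraries for 8 members and higher for Hoxc11. The median difference of the members was -4.67 percentage points. Of all genes, 19.0% (4107) were lower and 2.39% (518) higher, and the median was 0, since most genes did not differ. Among all genes that differed, lower was thus the usual direction, as among the members. Leaving out 1 library turned the sign at all members but Hoxc8. The widest difference was at Hoxc8, with 22.7 ± 27.2% in dnTCF4 and 37.1 ± 40.5% in control libraries (SD, n = 4 each). That is -14.5 percentage points, with an exact permutation p of 0.657 and an adjusted p of 1. The groups overlapped at all 9 members, and 0.00462% of all genes, 1 gene, had groups apart.

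As a share of each library's own covered length, the Hoxc span was lowest in the 3 longest lists, dnTCF4 1, control 3 and control 4. It held 0.432%, 0.440%, 1.22% and 1.28% of covered length in dnTCF4 libraries and 1.97%, 1.55%, 0.151% and 0.346% in control libraries. The means were 0.843 ± 0.470% in dnTCF4 and 1.00 ± 0.891% in control libraries (SD, n = 4 each), a difference of -0.161 percentage points with a two-sided exact permutation p of 0.771. Among the 5 libraries of at least 1000 peaks the difference turned to 0.728 percentage points, higher in dnTCF4 1, 3 and 4 than in control 3 and 4 (exact permutation p = 0.2 over the assignments of 3 and 2 libraries).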

How the data were processed

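H3K27me3 was profiled by ChIPmentation, in which a transposase adds adapters on the beads, per the labels' protocols. The submitters' processing notes name MACS2 2.1.2, Bowtie2 2.3.4.1, bedtools 2.28.0, SAMtools 1.2, Picard 2.20.2, cutadapt and Trim Galore, and mm10. Options, and any use of IgG as the peak caller's control, were not given in the sources used.

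The authors deposited 1 headerless peak list per H3K27me3 library. From the values, its columns hold a score (10 times the −log10 q, truncated, with 7 exceptions in 106385 peaks), a fold enrichment ratio, and a −log10 p and −log10 q per peak, all as deposited by the authors. Peak names carry the library's name, so calls were made per library. Lists hold no counts, so no depth, interval or floor is given.

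Peaks of a list were merged and the covered bases of spans and gene windows computed with Python 3.11.15, numpy 2.4.6 and pandas 2.3.3 on the RefSeq gene table of the same build. Fisher's exact test used SciPy 1.17.1. Groups were compared by a two-sided exact permutation test over 70 assignments of 8 libraries, and quantities within a library by an exact sign-flip permutation test over 256. Functions were tested on simulated data. Alternatives were a stricter −log10 q of 3, lists cut to 191 peaks, the 5 libraries of at least 1000 peaks, leaving out each library, other windows and spans, and the replicate block. Members, lists and named genes (all members, non-coding genes of the span, neighbours, and the 5 genes closest in pattern) were chosen with earlier results of these data known. The comparison with another Hox cluster and 1 gene list are not reported here.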

Additional observations from a re-analysis of the deposited data

Results flagged for a closer look

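The number of marked Hoxc members in dnTCF4 2 was 0, far from the 8 or 9 of the other 3 dnTCF4 libraries (gap of 0.889 of the group's range, above Dixon's critical value for 4 samples). This list was the shortest, with 191 peaks, and had 1 peak in the Hoxc span, between Hoxc10 and Hoxc9 and outside the members' windows. Of 24 group and value combinations looked at in this way it was the only one. Chance flags about 1 in 20 groups of independent, normally distributed values. That rate does not hold here, since the count cannot exceed 9 and the 24 combinations share the same libraries.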

How the results depend on the processing

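Depth is unknown, and list length limits all comparisons. With lists of equal length, the Hoxc span exceeded the Hoxb and Hoxd spans by 1.04 and the rest of chromosome 15 by 1.02 percentage points (exact sign-flip permutation p = 0.0625 for each), and with the 5 libraries of at least 1000 peaks by 35.6, 40.2 and 41.9. With 5 libraries 0.0625 is the smallest p that this exact test gives. Fold enrichment differed by 0.175 and log10 width by 0.211 in lists of equal length, by 0.410 and 0.313 at −log10 q of at least 3 (by -0.0954 and 0.450 there without control 1, chosen after seeing the data), and by 0.306 and 0.460 in the 5 libraries. Anterior minus posterior coverage was -0.302 with equal lists, 9.91 on bodies alone and -1.13 with 5 kb. The share of covered length in the span turned to 0.728 in the 5 libraries and to 0.115 with 20 kb added on each side. The span minus the 20 kb before Hoxc13 was -22.9 at −log10 q of at least 3, -1.23 with equal lists and -24.6 in the 5 libraries, none past the threshold. The cause of these changes was not tested beyond the smaller number of libraries.

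Leaving out 1 library at a time, dnTCF4 minus control ran from -18.1 to 6.39 for the span, from -1.58 to 1.42 for marked members and from -0.445 to 0.160 for the share of covered length, which turned to 0.160 without control 1 and 0.0216 without control 2. For single members it ran from -21.1 to 3.05 (Hoxc4), -14.6 to 1.96 (Hoxc5), -17.8 to 5.98 (Hoxc6), -22.2 to 9.30 (Hoxc9), -15.9 to 4.70 (Hoxc10), -6.76 to 12.1 (Hoxc11), -11.2 to 4.30 (Hoxc12) and -15.6 to 6.38 (Hoxc13). Other turned signs were 0.796 for Hoxc5 on its body alone, 0.0198 for Hoxc6 at −log10 q of at least 3, 1.57 for Hoxc8 with equal lists, and for Hoxc11 -7.05 at −log10 q of at least 3, -11.9 in the 5 libraries and -1.98 with 5 kb. Bodies minus the parts between turned to 1.64 at −log10 q of at least 3, and the span minus the 20 kb after Hoxc4 to 1.04 with equal lists. Of 129 alternatives to the main comparisons, 105 kept direction and side of the threshold. Of these, 14 are counts of called members, which were 0 throughout and could hardly be otherwise with so few libraries, so they show no stability. Leaving 1 library out of a comparison positive in 8 of 8 always gives an exact sign-flip permutation p of 0.0156, so those alternatives show none either. Group differences far above the threshold could also hardly pass it. The count of 105 is therefore no measure of stability.

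Of the same-numbered libraries only those numbered 2 deviated together (r over 4626 genes of -0.774, 0.765, -0.248 and -0.502 for numbers 1 to 4). Short lists of other numbers did so too, dnTCF4 2 with control 1 (r of 0.760) and dnTCF4 4 with control 1 and 2 (0.746 and 0.748). Among the longest lists, dnTCF4 1 did so with control 3 and 4 (0.696 and 0.485). The numbers were therefore not taken to pair the libraries. With the replicate block the differences were -5.99 for the span, -0.75 for marked members and -0.161 for the share of covered length (exact permutation p = 0.875, 0.75 and 0.75 over 16 assignments, smallest possible 0.125).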
